A study of Homo sapiens with 8 samples.

Results

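Peaks of open chromatin around the cardiac transcription factor genes NKX2-5, HAND1 and HAND2 were followed through cardiac differentiation of RUES2 cells, an established human embryonic stem cell line. Every ATAC-seq peak that overlapped the span of these genes extended by 100 kb on either side was taken, and peaks that overlapped between libraries were merged into regions. The rule left 113 regions of 285853 on chromosomes 1 to 22 and X, with 37 in the NKX2-5 locus, 42 in the HAND1 locus and 34 in the HAND2 locus. The rule uses position only, so that no accessibility value chose a region. There were 2 libraries for each of 4 stages. Embryonic stem cells (hESC) were taken on day 0, mesoderm (MES) on day 2, cardiac progenitors (CP) on day 5 and cardiomyocytes (CM) on day 14. All cells were of the unmodified line in monolayer culture. The hESC cells had already received the Wnt activator CHIR-99021 for the day before collection. MES cells had 2 further days with CHIR-99021, CP cells then received the Wnt inhibitor Xav-939, and CM cells were kept without inhibitors, at the end in medium with B27. ATAC-seq inserts adapters into accessible DNA with a transposase, and the pileup of reads at a site is set against the local background as a fold. The labels do not say whether the libraries of a stage came from separate differentiations, so p-values measure only the spread between these libraries.

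NKX2-5 is a homeodomain factor of the early heart field and of the working heart muscle, where it acts with GATA and T-box factors. HAND1 and HAND2 are basic helix-loop-helix (bHLH) factors that pair with E proteins and bind E-boxes. In the embryo HAND1 marks the outer curvature of the left ventricle and extraembryonic mesoderm, and HAND2 marks the second heart field and the right ventricle. Distal enhancers have been described for each of these genes.

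In GRCh38, NKX2-5 lies at chr5:173232109-173235311, HAND1 at chr5:154474972-154478227 and HAND2 at chr4:173524969-173530229, each on the minus strand. Regions are named by the distance of their midpoint from the transcription start, with positive values in the direction of transcription. The 8 lists held between 55777 peaks (CM replicate 2) and 156179 peaks (MES replicate 2). Over regions listed in all libraries, the median log2 fold was highest in CP replicate 2 at 3.05 and lowest in CM replicate 1 at 2.56. Read totals are not part of a peak list, and a region that a list lacks is below that library's q-value threshold rather than closed.

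The sequences shown first are those of the regions that were higher in CP and CM, followed by the CM-listed region 30.4 kb upstream of NKX2-5. Each is the 200 bp around the summit with the highest −log10 q, from the GRCh38 genome. Capitals mark matches to 6 consensus motifs on either strand. These were the GATA motif (AGATAA or else AGATAG, or with T as first base TGATAA or else TGATAG), the NKX motif (TNAAGTG), the HAND E-box (CATCTG), the T-box (GGTGTGA), the TEAD motif (GGAATG) and the POU octamer (ATGCAAAT).
NKX2-5 +66.5 kb (chr5:173168491-173168690, plus strand): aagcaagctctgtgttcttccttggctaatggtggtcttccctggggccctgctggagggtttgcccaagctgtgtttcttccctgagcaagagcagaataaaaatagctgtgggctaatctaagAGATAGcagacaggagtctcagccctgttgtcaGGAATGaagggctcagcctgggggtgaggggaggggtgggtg
NKX2-5 +38.8 kb (chr5:173196234-173196433, plus strand): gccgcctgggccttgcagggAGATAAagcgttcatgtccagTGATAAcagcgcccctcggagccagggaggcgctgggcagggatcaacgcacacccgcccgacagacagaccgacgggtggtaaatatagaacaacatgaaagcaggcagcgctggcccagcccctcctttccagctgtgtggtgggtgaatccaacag
NKX2-5 -55.5 kb (chr5:173290570-173290769, plus strand): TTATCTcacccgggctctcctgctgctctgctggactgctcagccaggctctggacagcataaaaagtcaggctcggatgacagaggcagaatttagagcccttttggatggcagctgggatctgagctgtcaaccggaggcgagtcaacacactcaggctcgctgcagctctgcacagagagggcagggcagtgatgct
HAND1 -48.2 kb (chr5:154526299-154526498, plus strand): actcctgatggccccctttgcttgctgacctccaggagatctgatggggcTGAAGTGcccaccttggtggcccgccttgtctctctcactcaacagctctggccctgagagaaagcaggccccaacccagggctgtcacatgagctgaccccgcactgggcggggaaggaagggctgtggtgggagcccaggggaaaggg
HAND1 -98.5 kb (chr5:154576559-154576758, plus strand): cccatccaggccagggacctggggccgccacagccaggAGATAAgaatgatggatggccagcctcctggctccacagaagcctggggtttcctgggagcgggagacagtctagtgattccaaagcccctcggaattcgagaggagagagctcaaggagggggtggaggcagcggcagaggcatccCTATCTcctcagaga
NKX2-5 -30.4 kb (chr5:173265564-173265763, plus strand): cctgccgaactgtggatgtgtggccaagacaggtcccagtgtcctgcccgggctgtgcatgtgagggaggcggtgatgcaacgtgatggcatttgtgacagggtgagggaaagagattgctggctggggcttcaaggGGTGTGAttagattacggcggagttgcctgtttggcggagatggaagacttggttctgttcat

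GATA letters stood in 4 of the 5 regions that were higher in CP and CM, all but HAND1 -48.2 kb, which held an NKX match instead. NKX2-5 +38.8 kb and HAND1 -98.5 kb held 2 GATA matches each, and NKX2-5 +66.5 kb also held a TEAD match. The strongest fall of the HAND1 locus is also shown, as 1 of 8 regions that were lower. HAND1 +82.3 kb held an octamer, a T-box and a TEAD match. None of these motifs was in any other region that was lower.
HAND1 +82.3 kb (chr5:154395776-154395975, plus strand): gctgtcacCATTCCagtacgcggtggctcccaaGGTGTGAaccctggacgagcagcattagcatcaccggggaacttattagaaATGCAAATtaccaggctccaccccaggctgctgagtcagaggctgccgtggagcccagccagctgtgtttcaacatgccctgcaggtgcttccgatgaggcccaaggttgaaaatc

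The promoters of HAND1 and HAND2 follow as the 250 bases before the transcription start in RefSeq (GRCh38.p14), since a peak covered each start. The HAND2 promoter held 2 GATA matches and the HAND1 promoter held no match to any of the 6 motifs.
HAND1 promoter (chr5:154478228-154478477, minus strand): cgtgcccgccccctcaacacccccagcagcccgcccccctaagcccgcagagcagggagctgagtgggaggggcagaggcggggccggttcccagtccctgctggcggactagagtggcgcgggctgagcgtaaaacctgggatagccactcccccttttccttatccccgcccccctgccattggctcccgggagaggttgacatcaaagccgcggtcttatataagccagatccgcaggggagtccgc
HAND2 promoter (chr4:173530230-173530479, minus strand): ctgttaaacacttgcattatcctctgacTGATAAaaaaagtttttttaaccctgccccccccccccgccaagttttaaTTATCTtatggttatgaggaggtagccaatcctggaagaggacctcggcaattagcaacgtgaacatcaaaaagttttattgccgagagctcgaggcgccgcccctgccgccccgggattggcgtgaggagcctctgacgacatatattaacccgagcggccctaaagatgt

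The 113 regions had a median width of 375 bp, with a range of 200 to 2299 bp, and 78 of them lay outside annotated protein-coding genes and long non-coding RNAs (GENCODE 44). In the HAND1 locus 27 of 42 regions were upstream of the transcription start, whereas 27 of 34 regions of the HAND2 locus were downstream of it, some inside the gene. In all 8 libraries 16 regions were listed (14.2%, against 9.84% of all regions), of which 8 were in the NKX2-5 locus, 6 in the HAND1 locus and 2 in the HAND2 locus. In 1 library only, 23 regions were listed (20.4%, against 40.7% of all regions).

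**Figure D1:**
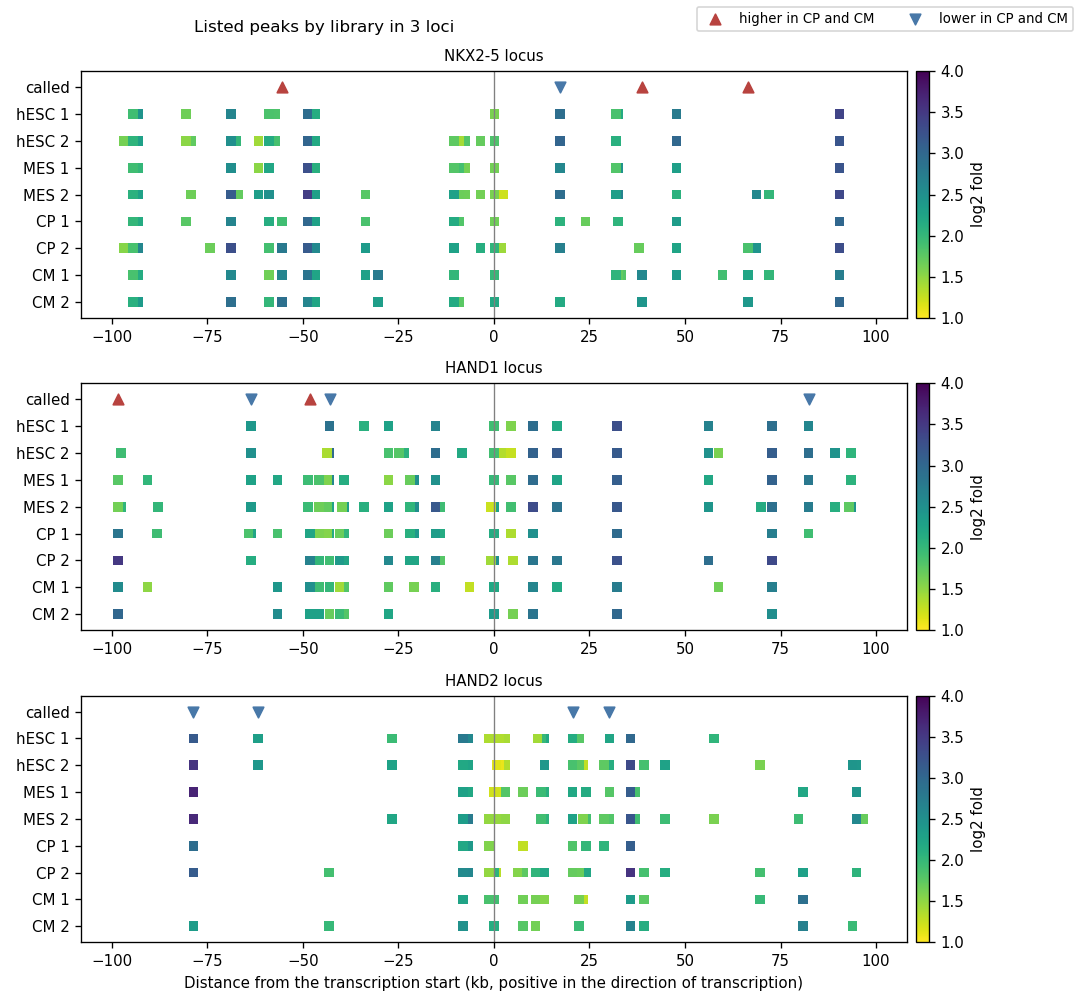
Peaks of the 3 loci by library. The x axis is the distance from the transcription start in kb, each square is a listed peak coloured by the log2 of its fold over the local background, and triangles mark regions that passed the test of CP and CM against hESC and MES. The 5 regions that were higher lie 38.8 kb or more from the start of NKX2-5 or HAND1, and the HAND2 locus has 4 regions that were lower.

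Stages were compared by limma on log2 folds over all regions. Higher or lower in CP and CM refers to their mean against the mean of hESC and MES, and not to each stage. A value that was missing or low was set to a common limit of fold 3.39, so that a fitted difference depends on this limit and is no bound, and a region was tested where at least 2 libraries were above that limit. Of the 113 regions 69 were tested (22, 26 and 21 for NKX2-5, HAND1 and HAND2), of 151970 in the genome. Of the 44 others, 23 were listed in 1 library and 21 in more, in up to 5. A stage with both libraries at the limit adds no spread, which makes the SE smaller. A region listed in 1 stage alone passed the filter through that stage. In these mixed populations, a larger share of cells with an open site and a more open site in each cell cannot be told apart.

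At NKX2-5 the promoter had a peak from hESC onward, and the regions that passed the test lay away from it. The region over the start of NKX2-5 (chr5:173234694-173235441, covering exon 1) was listed in all 8 libraries. Its folds were 3.04 and 3.57 in hESC, 3.12 and 3.03 in MES, then 3.13 and 4.11 in CP and 3.96 and 4.57 in CM. Both CM libraries and CP replicate 2 were above every hESC and MES library, while CP replicate 1 was not. The log2 difference of CP and CM from hESC and MES was 0.21 (95% interval 0.01 to 0.42) and did not pass the test (adjusted p = 0.126). It passed with libraries scaled to equal medians (0.18, adjusted p = 0.0281), and its other alternatives did not. The reads piled up at its summit numbered 42 to 82 per library. CP replicate 2 was also the library with the highest median over shared regions, and without it the difference was 0.15 (adjusted p = 0.189).

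The 3 regions of the NKX2-5 locus that rose were intergenic. NKX2-5 -55.5 kb (chr5:173290368-173290968) was not listed in any hESC or MES library, and had folds of 3.78 and 6.92 in CP and 6.23 and 7.51 in CM. Its log2 difference was 0.80 ± 0.20 (SE; adjusted p = 0.0390), with 29 to 84 reads at the summit in the CP and CM libraries. All 4 later libraries were thus above all 4 earlier ones. NKX2-5 +38.8 kb (chr5:173196018-173196786) was listed in CM alone, with folds of 6.06 and 5.43. It was called higher for CP and CM against hESC and MES (0.38 ± 0.07, adjusted p = 0.0215) and for CM against CP (0.76 ± 0.10, adjusted p = 0.0350). Both differences came from the CM libraries alone, since CP was at the limit like hESC and MES. These stages add no spread to the SE, and the region passed the filter through CM. NKX2-5 +38.8 kb was the region of the 3 loci that passed for CM against CP. NKX2-5 +66.5 kb (chr5:173168454-173169008) was listed at 3.64 in CP replicate 2 and at 4.73 and 5.28 in CM (0.30 ± 0.07, adjusted p = 0.0282). Here CP replicate 1 was absent, like the hESC and MES libraries.

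NKX2-5 -30.4 kb (chr5:173265450-173265814) had the same listing pattern as NKX2-5 +38.8 kb, with CM folds of 6.86 and 5.04. It did not pass the test (0.40 ± 0.11, adjusted p = 0.0511), but passed with scaled libraries (0.42, adjusted p = 0.0481). The gap between its CM libraries was wider than that of NKX2-5 +38.8 kb.

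Accessibility fell at NKX2-5 +17.3 kb (chr5:173217631-173218118), the closest called region to any of the 3 genes' starts. Its folds were 7.58 and 8.19 in hESC, 6.10 and 7.70 in MES, then 4.22 and 6.50 in CP and 4.52 in CM replicate 2, with no peak in CM replicate 1 (-0.70 ± 0.19, adjusted p = 0.0450). CP replicate 2 reached above MES replicate 1, so the early and late libraries overlapped. The strongest peaks of the locus by −log10 q were not called. NKX2-5 +90.4 kb, over the start of BNIP1, a gene of vesicle transport, had folds of 9.21 to 10.5 in hESC and MES and of 6.65 to 9.84 in CP and CM (-0.28, adjusted p = 0.134). NKX2-5 -48.8 kb, between genes, had folds of 7.66 and 8.16 in hESC, 9.66 and 11.1 in MES, then 7.97 and 8.91 in CP and 7.16 and 6.21 in CM (-0.27, adjusted p = 0.0996). NKX2-5 -93.2 kb, in STC2, a gene of a secreted glycoprotein, lay between 4.03 and 6.13 in the 8 libraries (0.07, adjusted p = 0.757). The 18 regions of the NKX2-5 locus that were tested and not called had log2 differences between -0.43 and 0.40.

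HAND1 showed the largest difference of the 3 loci, in a region that was weak in MES and stronger from the progenitor stage. HAND1 -98.5 kb (chr5:154576206-154577158, intergenic) was not listed in hESC, was weak in MES (3.42 and 3.11), and had folds of 7.14 and 11.4 in CP and of 5.92 and 8.08 in CM. At the summit, 18 and 22 reads in MES stood against 64 and 155 in CP and 64 and 52 in CM. Its log2 difference of CP and CM from hESC and MES was 1.22 ± 0.18 (adjusted p = 0.0148), and it rose from MES to CP (1.40 ± 0.26, adjusted p = 0.0296). With a −log10 q of 105 in CP replicate 2, it held the highest value of the 3 loci. HAND1 -48.2 kb (chr5:154526117-154526763, intergenic) was absent from hESC and MES and had folds of 4.72 and 6.42 in CP and 5.74 and 4.88 in CM (0.67 ± 0.13, adjusted p = 0.0226). In both regions the CP and CM libraries were all above the hESC and MES libraries.

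From hESC to MES 2 of 26 tested regions of the HAND1 locus rose (7.69%), close to the 7.53% of all tested regions. HAND1 -20.8 kb (chr5:154498628-154499504) was not listed in hESC, had folds of 5.74 and 5.78 in MES, then 5.26 and 4.68 in CP and 3.07 in CM replicate 1, and rose from hESC to MES (0.76 ± 0.13, adjusted p = 0.0155). HAND1 -48.7 kb (chr5:154526849-154527103), the next region upstream of HAND1 -48.2 kb, was listed in MES alone at 3.86 and 3.89. It rose from hESC to MES (0.19 ± 0.04, adjusted p = 0.0304) and fell from MES to CP (-0.19 ± 0.04, adjusted p = 0.0458). HAND1 -48.7 kb passed the filter through MES alone, and its other stages, all at the limit, add no spread to the SE. These neighbours were thus listed at different stages. With libraries scaled to equal medians HAND1 -20.8 kb did not pass for MES against hESC (0.48, adjusted p = 0.134), and HAND1 -48.7 kb was no longer among the tested regions. In the HAND1 locus 6 of 42 regions were listed in both MES libraries and no hESC library (14.3%, against 6.02% of all regions), and the reverse pattern was found for none of them (3.96% of all regions). The counts were 0 and 2 in the NKX2-5 locus and 2 and 3 in the HAND2 locus. HAND1 -39.2 kb, HAND1 -45.7 kb and HAND1 -98.5 kb made up the regions listed in all MES, CP and CM libraries and in no hESC library (3 of 113, or 2.65%, against 0.367% of all regions).

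The promoter region of HAND1 (chr5:154477691-154478624, covering the start and most of exon 1) was listed in all libraries. Folds were 3.79 and 3.75 in hESC, 3.97 and 4.83 in MES, then 4.46 and 5.70 in CP and 4.58 and 5.14 in CM. MES replicate 2 overlapped the CP and CM libraries. The log2 difference of 0.28 (95% interval -0.04 to 0.60) did not pass the test (adjusted p = 0.177), while scaling the libraries to equal medians gave 0.40 (adjusted p = 0.0144). A further region within 1 kb of the start, HAND1 -0.7 kb, was listed at 2.36 in MES replicate 2 and at 2.70 in CP replicate 2 and was not tested.

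3 regions of the HAND1 locus fell. HAND1 +82.3 kb (chr5:154395683-154396095, in GALNT10, a gene of protein glycosylation) had folds of 6.14 and 7.63 in hESC and 6.96 and 6.71 in MES, against 3.78 in CP replicate 1 and no peak in the other CP and CM libraries (-0.97 ± 0.12, adjusted p = 0.0102). The fall lay in the step from MES to CP (-0.93 ± 0.16, adjusted p = 0.0254). HAND1 -43.0 kb (chr5:154520950-154521546) went from 7.30 and 7.80 in hESC through 6.04 and 4.77 in MES and 4.49 and 3.79 in CP to 4.05 and 3.24 in CM (-0.70 ± 0.13, adjusted p = 0.0212). HAND1 -63.6 kb (chr5:154541440-154542239) was between 4.84 and 5.66 in hESC and MES, at 4.71 and 4.40 in CP and absent from CM (-0.42 ± 0.10, adjusted p = 0.0317). In each of the 3, all hESC and MES libraries were above all CP and CM libraries. With scaled libraries HAND1 -43.0 kb and HAND1 -63.6 kb did not pass (adjusted p = 0.0520 and 0.0803). HAND1 +32.2 kb, over the start of SAP30L, a gene of a chromatin corepressor subunit, had the second-highest −log10 q of the locus and folds of 6.71 to 9.69, and was not called (-0.19, adjusted p = 0.252).

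**Figure D2:**
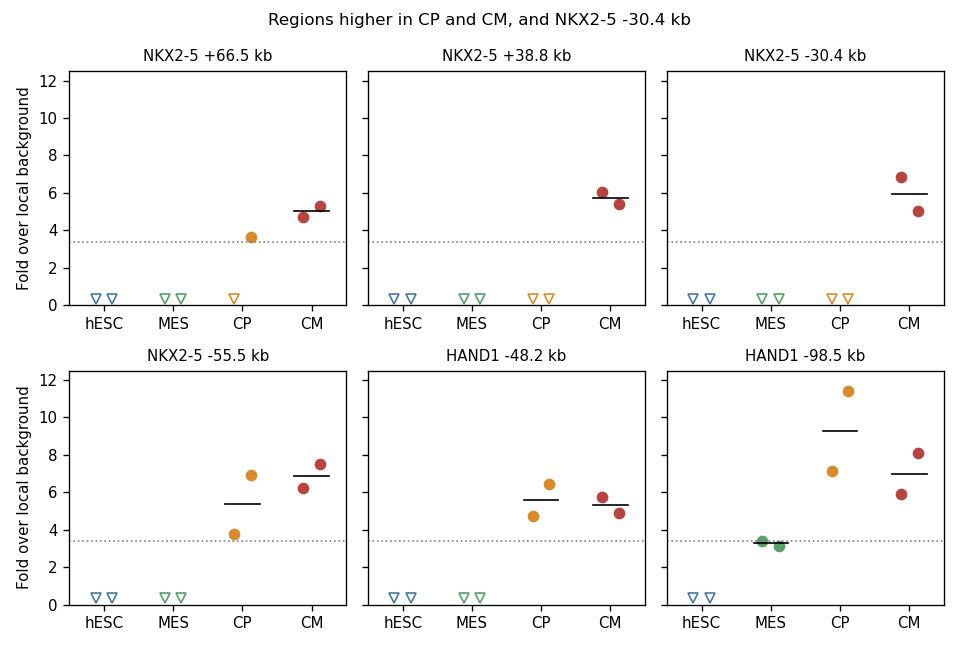
Fold by library in the 5 regions that were higher in CP and CM and in NKX2-5 -30.4 kb, which was not called. Symbols are as for the promoter regions, with listed peaks as filled circles, libraries without a peak as open triangles at the bottom, and the limit of 3.39 as a dotted line. HAND1 -98.5 kb reaches the highest fold, 11.4 in CP replicate 2, and NKX2-5 +38.8 kb has circles in CM alone.

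At HAND2 the 4 called regions were lower in CP and CM, which is 19.0% of its 21 tested regions and close to the 18.2% of all tested regions. The region over its start (chr4:173530030-173530397, in exon 1 and upstream of it, also inside the antisense gene HAND2-AS1) was listed at 2.33 in MES replicate 1, at 4.20 in CP replicate 2 and at 3.74 and 4.42 in CM. Neither hESC library listed it. It differed by 0.21 (95% interval -0.01 to 0.42) on the log2 scale and did not pass the test (adjusted p = 0.145). CP replicate 1 lacked it, so that the CP libraries disagreed. HAND2 +0.7 kb, also within 1 kb of the start, was listed at 2.20 in hESC replicate 2, 2.30 and 2.79 in MES and 2.50 in CP replicate 2, below the limit for the test.

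HAND2 -78.6 kb (in HAND2-AS1) held the highest folds of the locus. They were 8.95 and 11.7 in hESC, 13.0 and 12.6 in MES, then 7.69 and 8.83 in CP and 5.09 in CM replicate 2, with no peak in CM replicate 1 (-0.97 ± 0.16, adjusted p = 0.0176). CP replicate 2 came close to hESC replicate 1, and the groups did not overlap. HAND2 -61.8 kb (chr4:173591865-173592099, in HAND2-AS1) was listed in hESC alone, at 5.00 and 5.34. It passed the filter through hESC alone, and the other stages, all at the limit, add no spread to the SE. From hESC to MES it fell (-0.61 ± 0.08, adjusted p = 0.00940). This step also sets its difference of CP and CM from hESC and MES (-0.30 ± 0.06, adjusted p = 0.0217), since no library from MES onward listed it. HAND2 +30.2 kb (chr4:173499590-173500396, intergenic) had folds of 4.70 and 4.38 in hESC and 3.45 and 3.53 in MES and was absent later. It fell from hESC to MES (-0.38 ± 0.07, adjusted p = 0.0193) and was lower in CP and CM than in hESC and MES (-0.23 ± 0.05, adjusted p = 0.0274). The step from MES to CP did not pass (-0.04, adjusted p = 0.854). HAND2 +20.6 kb (chr4:173509395-173509896, in the non-coding gene ENSG00000286039) was between 3.66 and 4.81 in hESC and MES, at 3.54 and 3.28 in CP and absent from CM (-0.35 ± 0.09, adjusted p = 0.0405). With scaled libraries HAND2 +30.2 kb and HAND2 +20.6 kb did not pass (adjusted p = 0.0684 and 0.102).

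Other strong peaks of the HAND2 locus did not pass. HAND2 +35.8 kb had folds of 7.97 and 10.0 in hESC, 8.74 and 9.27 in MES, then 8.67 and 11.7 in CP and 5.17 and 6.30 in CM (-0.24, adjusted p = 0.277). Its CM libraries were below the 6 others, but the step from CP to CM did not pass either (adjusted p = 0.103). HAND2 -6.8 kb lay between 4.58 and 6.81 where listed and was absent from CM (-0.32, adjusted p = 0.224). HAND2 +80.9 kb had the largest positive difference among the regions of the 3 loci that did not pass, 0.54 (adjusted p = 0.0692), and was named after its values were seen. It was listed at 4.65 in MES replicate 1, 4.90 in CP replicate 2 and 7.48 and 6.52 in CM. With scaled libraries it passed as higher (0.51, adjusted p = 0.0180).

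**Figure D3:**
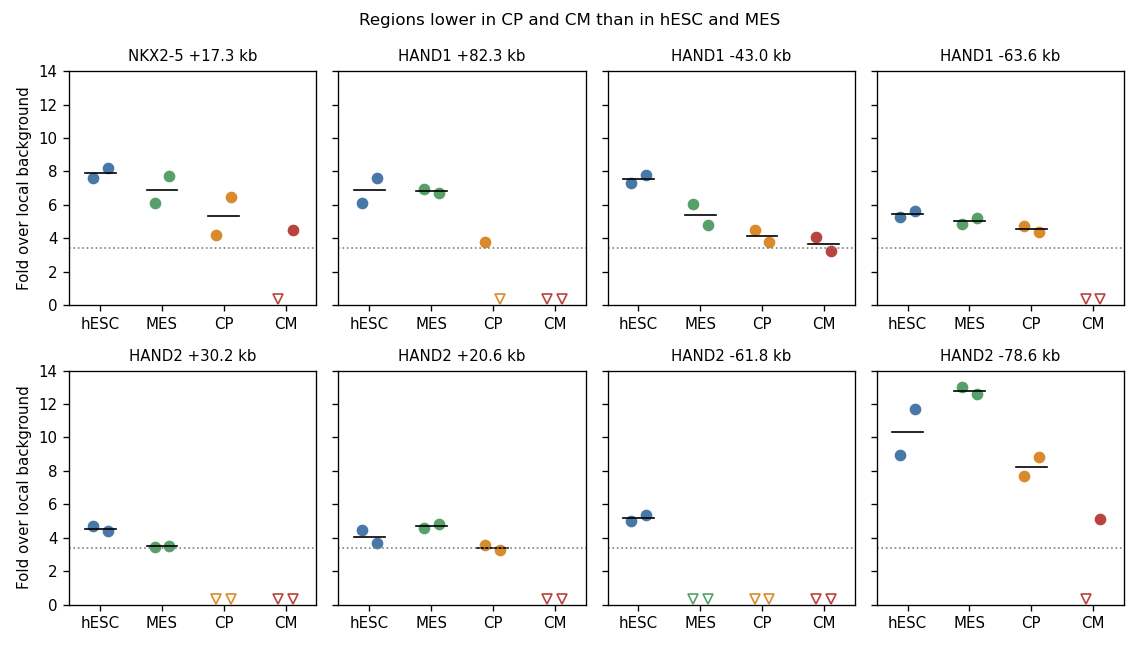
Fold by library in the 8 regions that were lower for the mean of CP and CM against the mean of hESC and MES. Symbols are as for the regions that rose, and the y axis is the fold over the local background. Both CM libraries lack a peak in HAND1 +82.3 kb, HAND1 -63.6 kb, HAND2 +30.2 kb, HAND2 +20.6 kb and HAND2 -61.8 kb, and HAND2 -78.6 kb starts from the highest folds.

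Over the 3 loci, 5 of 69 tested regions were higher in CP and CM than in hESC and MES (7.25%, against 2.95% of all tested regions), with 3 at NKX2-5, 2 at HAND1 and 0 at HAND2, where 1 region had an unadjusted p under the threshold of 0.05. Lower calls numbered 8 (11.6%, against 18.2%), with 1, 3 and 4 in the same order. The median log2 difference was -0.07 in the 3 loci and -0.15 over all tested regions. From hESC to MES 2 regions rose (2.90%, against 7.53%) and 2 fell (2.90%, against 5.51%). From MES to CP 1 region rose (1.45%, against 0.939%) and 2 fell (2.90%, against 6.40%). From CP to CM 1 region rose (1.45%, against 0.918%) and 0 fell (against 1.22%), with 9 falls at an unadjusted p under 0.05 in limma. For CP and CM against hESC and MES, scaling the libraries to equal medians over shared regions moved the comparison up by 0.13. It gave 11 higher and 5 lower calls of 54 tested (20.4% and 9.26%), against 6.95% and 19.6% of all regions tested in that way. The 11 higher calls included the 5 made without scaling, and the 5 lower calls included 4 of the 8. These shares rest on 69 regions and few calls. Without either CM library no region of the genome passed in any of the 4 comparisons in limma. Higher and lower calls of the loci numbered 1 and 3 without hESC replicate 1, 0 and 2 without hESC replicate 2 and 1 and 2 without MES replicate 2.

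Listing patterns were also counted, without the common limit. They use the same peaks as the test, and each list keeps its own q-value threshold and length. Both CP and both CM libraries and no earlier library listed 3 of 113 regions (2.65%, against 0.448% of all regions), which were NKX2-5 -55.5 kb, HAND1 -48.2 kb and HAND1 -40.4 kb. The last of these, with folds of 3.21, 5.21, 2.70 and 3.91 in CP and CM, did not pass the test (adjusted p = 0.310). Listing in both CM libraries and no other was seen for 2 regions, both at NKX2-5 (1.77%, against 1.05%). Both hESC and both MES libraries and no later library listed 2 regions, both at HAND2 (1.77%, against 1.59%). MES alone listed 2 regions (1.77%, against 2.76%) and hESC alone 3 (2.65%, against 3.01%).

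The number of peaks in a locus was also set against the length of each list. Per 100000 listed peaks, the NKX2-5 locus held 15.5 and 13.5 peaks in hESC, 14.8 and 15.4 in MES, then 17.0 and 17.5 in CP and 21.6 and 26.9 in CM. Every CP and CM library was above every earlier one. The log2 difference was 0.47 ± 0.16 (SE; limma over 19698 protein-coding genes, adjusted p = 0.0450), a call shared by 6.65% of these genes in this direction and by 2.35% in the other. As listed, the peaks were 16, 21, 16 and 24 in hESC and MES and 17, 21, 20 and 15 in CP and CM, so that the undivided numbers had no such difference in limma (-0.07, adjusted p = 0.844). Leaving out any library but CM replicate 1 ended the call, with adjusted p-values up to 0.206.

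At HAND1 the hESC libraries stood apart only after division by the length of the list. Its locus held 12.6 and 14.1 peaks per 100000 in hESC, 22.2 and 20.5 in MES, then 24.1 and 18.3 in CP and 19.4 and 25.1 in CM. Both hESC libraries were below the 6 others. The step from hESC to MES (0.66, adjusted p = 0.544) and the later stages against the earlier ones (0.36, adjusted p = 0.119) did not pass. HAND2 held 15.5 and 13.5, 15.7 and 13.4, 10.0 and 16.6, and 15.1 and 23.3 peaks per 100000 in the order of the stages, and the libraries of CP and CM differed widely (0.12, adjusted p = 0.672).

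**Figure D4:**
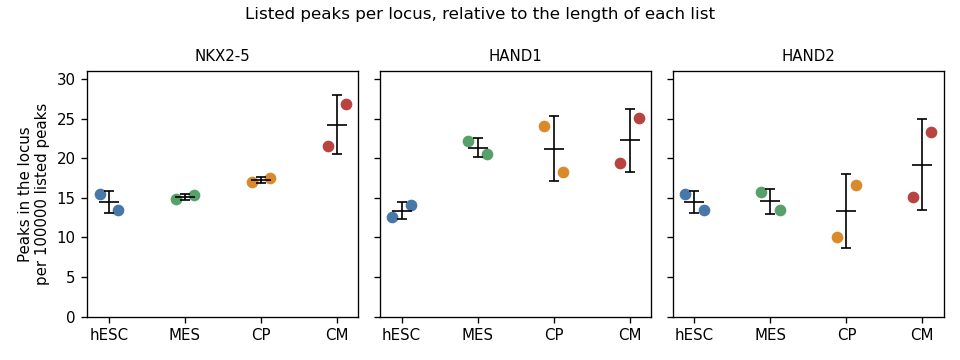
Peaks in each locus per 100000 peaks of a library's list. Points are libraries, and the bar and whiskers are the mean and SD of the 2 libraries of a stage. NKX2-5 goes from 13.5 to 15.5 in hESC and MES to 17.0 to 26.9 in CP and CM. HAND1 is lower in hESC than in the later stages, which does not hold for the peaks as listed.

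Promoters of genes that act with the 3 factors were counted with the same test, by the region within 1 kb of each start that had the highest −log10 q. Among 13925 distinct promoter regions of protein-coding genes, 0.732% were higher in CP and CM and 3.40% were lower, with a median log2 difference of -0.01. The lists are small, and some share genes. Cardiac transcription factors had 1 higher and 0 lower of 17 tested, with a median of 0.16. The gene that rose was GATA4, a zinc finger factor of the heart, at 3.41 in hESC replicate 2, 3.76 and 3.43 in MES, then 4.52 and 4.02 in CP and 4.22 and 4.71 in CM (0.32, adjusted p = 0.0473). Of the T-box genes, TBX3, which marks the conduction system, had folds of 4.71 to 4.83 in hESC and MES, then 4.83 and 6.44 in CP and 5.99 and 7.43 in CM (0.36, adjusted p = 0.111), and TBX20 differed by 0.34 (adjusted p = 0.0900).

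Relatives of NKX2-5 had 1 higher and 0 lower of 7. NKX2-3, a homeobox gene of gut and spleen, rose from 2.94 to 3.76 in hESC and MES to 4.83 and 5.94 in CP and 5.03 and 5.84 in CM (0.63, adjusted p = 0.0208). NKX2-6, expressed in pharyngeal endoderm and early heart, had 3.89 to 4.28 in hESC and MES and 4.48 to 7.49 later (0.48, adjusted p = 0.103). The bHLH partners and inhibitors of the HAND factors had 0 calls of 9 in limma, with 2 at an unadjusted p under 0.05 and a median of 0.05. Among them TWIST1 differed by 0.29 (adjusted p = 0.0886) and ID2 by -0.25 (adjusted p = 0.0954), and the E protein genes TCF3, TCF4 and TCF12 by 0.18, 0.08 and 0.05.

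Heart muscle genes, among which are known targets of these factors, had 3 higher and 0 lower of 13, with a median of 0.26. TTN, the giant sarcomere protein, was at 3.58 in hESC replicate 2 and in no other early library, and at 7.20 and 11.5 in CP and 8.25 and 8.54 in CM (1.34, adjusted p = 0.0104). TNNI1, the slow skeletal and fetal troponin I, rose from at most 3.60 to 5.68 and 10.1 in CP and 4.72 and 6.24 in CM (0.90, adjusted p = 0.0303). PLN, which restrains the calcium pump, was listed in CM alone at 6.82 and 5.65 (0.44, adjusted p = 0.0244), the pattern of NKX2-5 +38.8 kb. MYL4 was listed in CP and CM alone, with 3.62 and 6.87 and then 4.56 and 4.91, and did not pass (0.52, adjusted p = 0.117). Differences were negative and did not pass for NPPB (-0.32, adjusted p = 0.122), ACTN2 (-0.20, adjusted p = 0.124), SLC8A1 (-0.13), TNNI3 (-0.04) and RYR2 (-0.01). They were positive and did not pass for TNNT2, MYH6, MYL7 and ACTC1. Upstream signals had 2 higher and 0 lower of 7. BMP2, a ligand that induces the heart field, went from 3.77 and 3.70 in hESC to 5.48 and 5.62 in MES, then 6.31 and 7.24 in CP and 5.37 and 5.87 in CM (0.44, adjusted p = 0.0319). MESP1, the factor of early cardiac mesoderm, had folds of 3.93 to 4.86 in hESC and MES, then 5.20 and 7.14 in CP and 5.92 and 7.31 in CM (0.52, adjusted p = 0.0484).

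Marker promoters were used to check the stages. Of 6 pluripotent markers, 5 were listed in each hESC and MES library, 4 in each CP and 3 in each CM library. NANOG was between 4.47 and 5.73 in hESC and MES and absent from CP and CM (-0.51, adjusted p = 0.0248), and DPPA4 was absent from CM (-0.42, adjusted p = 0.0387). The promoters of SOX2 (0.34, adjusted p = 0.0794), LIN28A (0.26, adjusted p = 0.170) and ZFP42 (-0.10, adjusted p = 0.561) had peaks in every library and did not pass. Of 7 cardiomyocyte markers, 1 or 2 were listed per hESC and MES library, 3 and 5 in CP and 6 and 5 in CM. MYH7 had no peak within 1 kb of its start in any library, and POU5F1 had none either. The 6 mesoderm markers were listed in all libraries, with 1 higher (MESP1) of 6 tested. Cardiac progenitor markers had 1 higher (GATA4) of 4, and cardiomyocyte markers 1 higher (TTN) of 5. TNNT2, MYH6 and MYL7 had positive differences that did not pass. ACTN2 had a peak in every library, at 9.22 and 8.49 in hESC and 6.99 and 7.26 in CM (-0.20, adjusted p = 0.124). Of 10 markers of other cells, 8 were tested and 0 passed in limma, with 3 at an unadjusted p under 0.05. LUM, a stromal gene, was listed at 5.26 in hESC replicate 2, at 3.99 and 6.81 in CP and 5.92 and 7.14 in CM (0.62, adjusted p = 0.0982). Of the other stromal genes, DCN was listed in hESC alone (-0.45, adjusted p = 0.113) and COL1A1 in every library (0.02, adjusted p = 0.909). Among endothelial genes, CDH5 had no peak in any library and PECAM1 had one in MES replicate 1 alone. TEK was listed in each library but CM replicate 1, at 4.25 to 6.16 in hESC and MES and at 4.35, 7.17 and 3.96 later (-0.18, adjusted p = 0.479). The part of other cell types in the results was not tested.

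The promoter regions with the profile most like that of each gene were sought over the 8 log2 folds of 15367 genes. For NKX2-5 they were TCF7L1, TBX3, CSDC2, MYH6 and ZFAND6, with Pearson's r of 0.978 to 0.992. For HAND2 they were TNNT2, CSDC2, TBX3, TRIB1 and TCF7L1 (r of 0.982 to 0.996), so that 3 genes were in both lists. TNNT2, cardiac troponin T, was listed at 5.33 in CP replicate 2 and at 3.96 and 5.65 in CM, the 3 libraries in which HAND2 was above the limit. MYH6, the atrial myosin heavy chain, was listed at 4.18, 4.28 and 5.19 in the same libraries. For HAND1 they were ZFAT, SETD2, MAP3K1, FIBP and STIP1 (r of 0.980 to 0.988), which had peaks in every library. The points share library depth and base composition, and 4 of 8 values at NKX2-5 and 5 of 8 at HAND2 are at the limit. These correlations are descriptions over 8 libraries.

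In the loci start 12 other protein-coding genes and long non-coding RNAs, of which 10 had a promoter region, 7 were tested and 0 passed in limma, with 2 at an unadjusted p under 0.05. Those with a promoter region were BNIP1, STC2, ENSG00000253172 and ENSG00000289493 around NKX2-5, SAP30L, SAP30L-AS1 and ENSG00000254293 around HAND1, and HAND2-AS1, ENSG00000286039 and ENSG00000288776 around HAND2. Pairs that start from the same region, such as BNIP1 and ENSG00000253172, share 1 value. The differences of the tested neighbours ran from -0.28 for BNIP1 to 0.25 for ENSG00000289493.

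Motif letters were also counted over all regions. In 200 bp windows, GATA letters were found in 36 of 113 regions of the loci (31.9%) and in 27.2% of all 285853 regions. Over the genome they were in 55.8% of the 4478 regions that were higher in CP and CM and in 29.7% of the 27603 that were lower. In the loci they were in 4 of 5 that were higher and in 1 of 8 that were lower, HAND2 -61.8 kb. NKX letters were in 11 regions of the loci (9.73%, against 10.3% of all regions and 19.1% of those higher). The HAND E-box was in 20 (17.7%, against 16.1%), T-box letters in 6 (5.31%, against 4.58%), TEAD letters in 9 (7.96%, against 14.6%) and the octamer in 1 (0.885%, against 1.65%). That octamer lay in HAND1 +82.3 kb, and octamers were in 4.46% of all regions that were lower and in 0.536% of those that were higher. The windows of the loci had a median GC content of 58.5%, against 52.5% for all regions, and its part in these shares was not tested. In the 250 bases before the start, GATA letters were in 22.3% of 35116 RefSeq promoters. A match is a run of letters and not a bound site.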

How the data were processed

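ATAC-seq was performed by the authors on 8 libraries of RUES2 cells. Reads were mapped by the authors to hg38 with BWA-MEM (BWA 0.7.13), alignments with a mapping quality above 30 were kept, duplicates were removed with Picard, and peaks were called in each library separately with MACS2 2.1.0 with a q-value limit of 0.01 after moving read ends back by 100 bp and extending them to 200 bp. The deposited lists give for each peak a fold, which is the ratio of the pileup to the local background. They also give the −log10 p-value and −log10 q-value in the deposited files. The deposited display score is a rescaled q-value and was left unused.

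Groups were taken from the sample titles. Pileups were recovered from fold and −log10 p, within 0.001 for 100% of peaks. Overlapping peaks of the 8 lists were merged, and each library's highest fold in a region was used. The common limit of 3.39 is the highest, over libraries, of the median fold of the 1% of peaks with the lowest −log10 q. Log2 folds were fitted with limma 3.58.1 (R 4.3.3) with a mean-variance trend over all regions above the limit in 2 or more libraries, with 4 stage means, and p-values were adjusted by the Benjamini-Hochberg method over all regions (threshold 0.05, two-sided). The study quantified reads, which were not used here. Peaks per locus were fitted likewise as log2 of (peaks + 0.5) per 100000. Fits were tested on simulated data to which the common limit was not applied, so that values tied at the limit were not covered. Replicate numbers were not used as pairs in the main fit, since deviations of same-numbered libraries showed little correlation.

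The sequence of 1 region is not reported here. The loci, gene lists, motifs and tests were chosen with earlier results of these data known. Named regions are those within 1 kb of a start, up to 5 called regions of largest difference per direction and locus, and the 3 of highest −log10 q per locus. Likeness names the 5 genes of highest r, and lists name up to 4 genes of large difference. Some other listed genes that differed little or went the other way are also named. Alternatives changed the value of absent peaks, scaling, peak threshold, list length, merging, filter, trend, replicate block, pseudocount and locus size, and left out each library in turn. A fold over the genome-wide background was added after seeing the data.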

Additional observations from a re-analysis of the deposited data

How the results depend on the processing

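Peak lists hold no values for sites below each library's threshold, so the shortest list, CM replicate 2 with 55777 peaks, and the common limit set what can be called. Counts of called regions in the loci were small and moved with nearly every setting. None of the 13 regions called for CP and CM against hESC and MES changed sign in an alternative that tested it. For regions listed only in later or only in earlier libraries, such as NKX2-5 +38.8 kb and HAND2 -61.8 kb, the sign could not change. The 13 regions were also chosen for their difference in these same libraries. Regions called in single steps were followed by their counts. The causes of these changes with the setting were not tested. The 13 regions called for CP and CM against hESC and MES passed in 4 (HAND2 +20.6 kb) to 14 (HAND1 +82.3 kb) of the 14 to 17 alternatives each had.

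In the order higher and lower in CP and CM, higher and lower in MES against hESC, higher and lower in CP against MES, and higher and lower in CM against CP, the main counts were 5, 8, 2, 2, 1, 2, 1 and 0. A fold of 1 for absent peaks gave 9, 13, 8, 3, 4, 4, 2 and 5. Scaled libraries gave 11, 5, 0, 2, 1, 1, 5 and 0, and a −log10 q of at least 5 gave 3, 6, 2, 2, 1, 2, 1 and 0. With lists of equal length the counts were 0, 1, 0, 0, 0, 0, 0 and 0, and with regions above the limit in 1 library or more 2, 3, 1, 0, 0, 0, 0 and 0. Windows of 200 bp around summits gave 5, 9, 3, 3, 1, 2, 1 and 0. Without the mean-variance trend they were 5, 8, 2, 2, 1, 1, 1 and 1. A fold over the genome-wide background, chosen after seeing the data, gave 7, 16, 7, 3, 3, 6, 2 and 2. With each library left out in turn (without replicate 1 or 2 of a stage), the counts ranged from 0 to 7, 0 to 9, 0 to 3, 0 to 2, 0 to 4, 0 to 1, 0 to 1 and 0 to 3. Without CM replicate 1 or CM replicate 2 all were 0, here and over the genome.

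With the replicate number as a block (replicate block), the counts were 5, 6, 1, 2, 1, 0, 0 and 0, and over all regions 3572 higher and 22594 lower calls were made for CP and CM, against 4478 and 27603. Deviations of same-numbered libraries correlated at -0.0561 to 0.0948 over tested regions. Whether same-numbered libraries shared a differentiation or a batch cannot be told from these values.

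Promoter regions kept a positive difference in the 16 alternatives that gave a value, which lists of equal length did not. They passed only with scaled libraries, NKX2-5 at 0.18 and HAND1 at 0.40. The ranges without each library were 0.15 to 0.28 for NKX2-5, 0.20 to 0.37 for HAND1 and 0.13 to 0.28 for HAND2. The peaks per locus of NKX2-5 (0.47, adjusted p = 0.0450) did not pass within 50 kb (0.51, adjusted p = 0.0916), without the trend (0.47, adjusted p = 0.110) or with the replicate block (0.47, adjusted p = 0.0548), and ranged from 0.39 to 0.55 without each library. HAND1 passed with lists of equal length (0.46, adjusted p = 0.0437) and within 50 kb (0.54, adjusted p = 0.0420), and ranged from 0.26 to 0.45, passing without CM replicate 1. HAND2 ranged from -0.06 (without CP replicate 2) to 0.29, and was -0.04 without CM replicate 2. Peaks not divided by the length of the list gave -0.07 for NKX2-5, -0.18 for HAND1 and -0.42 for HAND2. The CP and CM lists together hold fewer peaks than those of hESC and MES.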

Other observations

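Promoter folds over the local background were lower, by construction, than those over the genome-wide background, the lowest background recovered in each library. At the start of NKX2-5 the latter were 11.1 and 13.3 in hESC, 9.72 and 8.91 in MES, then 9.61 and 12.3 in CP and 14.9 and 12.4 in CM, so that hESC and CM libraries overlapped. At the start of HAND1 they ran from 17.3 in hESC replicate 2 to 31.6 in CP replicate 2. At the start of HAND2 they were 8.14 in MES replicate 1, 13.5 in CP replicate 2 and 9.87 and 10.2 in CM. HAND1 -98.5 kb reached 36.2 in CP replicate 2 on this scale, above both promoters of the HAND genes in any library.

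Within 15 kb of the start lay 13 regions of HAND2, 9 of HAND1 and 7 of NKX2-5. Of the 13 at HAND2, 8 were not tested, and their highest fold was 4.11, at HAND2 +10.8 kb in CP replicate 2. HAND2 +10.8 kb was listed at 4.11 in CP replicate 2 and at 3.10 and 3.12 in CM, and HAND2 +7.7 kb at 3.20 in MES replicate 1, 2.45 and 3.38 in CP and 3.13 and 3.47 in CM. HAND2 +2.8 kb, inside the gene, was listed at 2.63 and 2.54 in hESC and 3.48 and 2.84 in MES and in no later library. HAND2 -1.4 kb was at 2.58 in hESC replicate 1, 2.81 in MES replicate 2, 2.96 and 2.80 in CP and 3.64 in CM replicate 1. No stage difference was tested for these weak peaks.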
